A study of Mus musculus with 4 samples.

Results

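The change between 8 h and 16 h of CpG ODN stimulation was examined in RAW264.7 cells, a line of macrophage-like cells of mouse origin. All stimulated cultures received 1 µM ODN1826, an oligonucleotide whose unmethylated CpG motifs are recognized by TLR9. Total RNA was taken at 0 h, the only unstimulated sample, and at 4 h, 8 h and 16 h. It was labelled with Cy3 and hybridized to an Agilent mouse lncRNA array, 1 array per time point. The 8 h and 16 h arrays are compared here, and the 0 h and 4 h arrays give the earlier course. The samples share the cell line, the dose and the slide, and no culture kept for 8 h or 16 h without the ligand is analysed here. Time in culture and time with the ligand therefore cannot be told apart. Each side of the step is 1 array, so no p-value can be given, and a difference holds for these 2 RNA samples.

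A probe was examined when all of its spots were well above background at 8 h or at 16 h. This held for 72765 of the 97836 probes on the array, 41574 of 58809 lncRNA probes and 31191 of 39027 mRNA probes. Values are log2 intensities minus the 75th percentile of the array, which was an intensity of 493 at 8 h and 440 at 16 h (531 at 0 h and 503 at 4 h). All differences below are log2 values of 16 h minus 8 h unless another step is named, and the intensities printed for single probes are the scanner values before that subtraction. The files pair no mRNA probe with a gene name. A gene was found for 5893 lncRNA probes, and 3755 of these, from 3547 genes, were examined. For the same reason the macrophage label could not be checked, since 0 of 17 macrophage genes looked for had a named probe.

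TLR9 signals from endosomes through MyD88 to NF-κB and MAP kinases, and the early wave of cytokine genes is followed by a later phase of feedback, metabolic change and slower growth. Noncoding transcripts take part at several levels of such a response. Some, such as Neat1, build nuclear bodies, some are imprinted or act on the chromatin of their own locus, such as Airn, and others are the precursors of miRNAs or snoRNAs. Many are simply transcribed from the opposite strand of a coding gene. This is background from general knowledge and no result of these arrays.

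Most probes changed little between 8 h and 16 h. Of the probes examined, 92.9% differed by less than 2-fold, and the median absolute difference was 0.26. More than 2-fold higher at 16 h were 1303 lncRNA probes (3.13%), and 1637 (3.94%) were lower by that much. Of the mRNA probes 879 (2.82%) were upregulated and 1324 (4.24%) downregulated to this extent. After normexp background correction, which shrinks the differences of dim probes, 304 lncRNA probes were higher and 218 lower, and 364 and 664 mRNA probes. Fewer probes passed than in the steps from 0 h, where 6.68% of the probes examined were higher and 7.40% lower at 8 h than at 0 h, and 5.48% and 5.32% at 4 h than at 0 h. Those steps share the 0 h array, and the one to 4 h is shorter.

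Counted over all probes examined, larger differences fell mostly on the lower side. A 4-fold limit was passed by 162 lncRNA probes upwards and by 258 downwards. The numbers for mRNA were 67 and 171. Most of these lncRNA decreases had a mean log2 intensity of both arrays under 4, too dim for a measured level at 16 h. At 4 and over, the surplus of lower lncRNA probes past 4-fold was not seen, while that of mRNA probes was. Many of the lncRNA probes that passed 2-fold had no measured level on 1 side. Of the higher lncRNA probes, 388 (29.8%) were dim at 8 h, meaning not well above background, and 748 of the lower ones (45.7%) were dim at 16 h. Among mRNA probes these were 151 (17.2%) and 268 (20.2%). With all spots above background on both arrays, 914 lncRNA probes were higher and 889 lower, so that the surplus of lower lncRNA probes was not seen there, whereas 727 mRNA probes were higher and 1056 lower. Higher probes made up 44.3% of the lncRNA probes past 2-fold, and 58.2% after normexp correction. For mRNA the share was 39.9% and 35.4%.

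**Figure D1:**
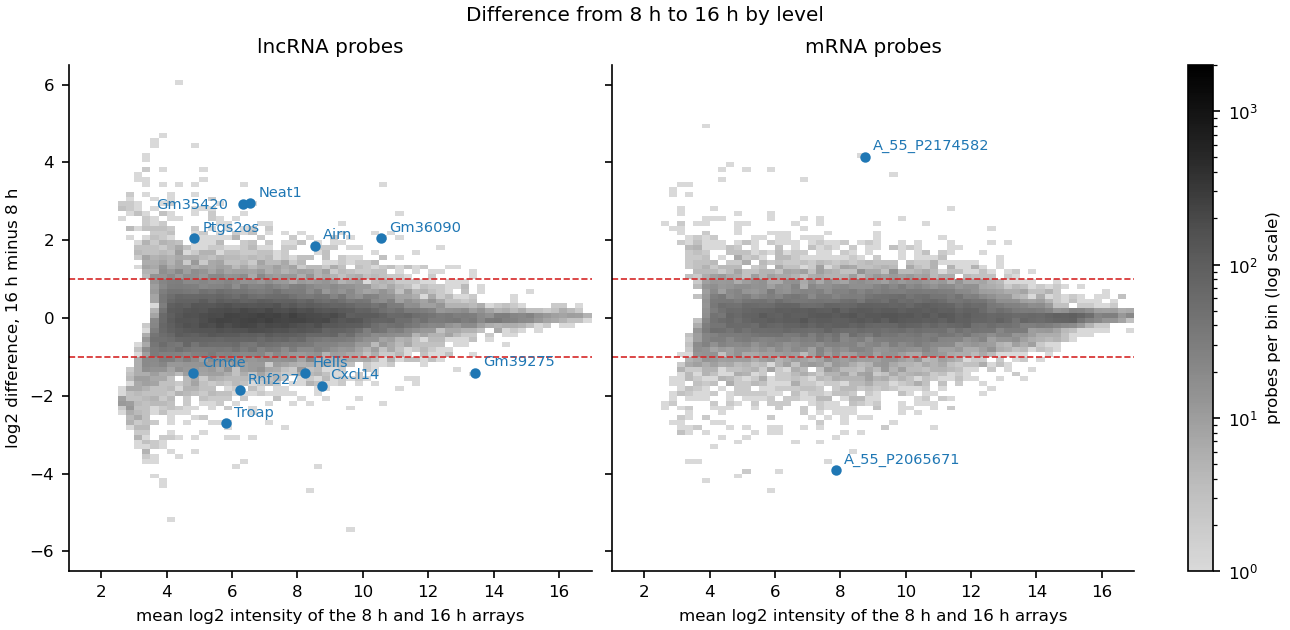
Log2 difference (16 h minus 8 h) against the mean log2 intensity of both arrays for the lncRNA and mRNA probes examined. Shading counts probes per bin on a log scale, dashed lines mark 2-fold, and blue points are probes named in the text. Differences are widest for dim probes, in part because the filter keeps the dimmest probes only if their arrays differ. The named lncRNA Gm39275 had a difference of -1.40 at a high level.

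The only replication within a time point is between spots of 1 array. Of the lncRNA probes examined, 26747 have 2 spots and no outlier spot on either array, and so do 30862 of the mRNA probes. Among those past 2-fold, both spots moved in the direction of their mean for 99.7% (higher) and 99.2% (lower) of the lncRNA probes. For mRNA this was 99.9% and 99.7%. This agreement in direction follows largely from choosing probes by that mean. Over all these probes the median gap between the differences of the spots was only 0.15 for lncRNA and 0.10 for mRNA. Each spot passed 2-fold by itself for 74.7% and 67.6% of the lncRNA probes and for 77.7% and 80.3% of the mRNA probes. When the contrast of a probe's spots took the place of their mean, so that the time points cancel, 25 lncRNA probes passed as higher and 24 as lower, where 798 and 885 had passed on the mean. For mRNA these were 14 and 16, against 877 and 1317. Spots on an array share 1 culture, 1 extraction and 1 labelling, and the spread between cultures was not measured.

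The share of probes past 2-fold depended on the level. Under a mean log2 intensity of 4, 40.3% of the lncRNA probes passed, against 8.37% from 4 to 6, 4.96% from 6 to 8 and 1.04% over 12. For mRNA probes it was 36.3% under 4, 8.04% from 8 to 10 and 1.45% over 12. The shares under 4 follow in part from the filter. The lowest intensity well above background was 12.3 at 8 h and 13.2 at 16 h. A probe with a mean well below these was examined only if its arrays differed widely. Between log2 intensities of 8 and 10, a larger share of mRNA probes than of lncRNA probes passed (8.04% against 3.90%), and this difference was not tested.

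**Figure D2:**
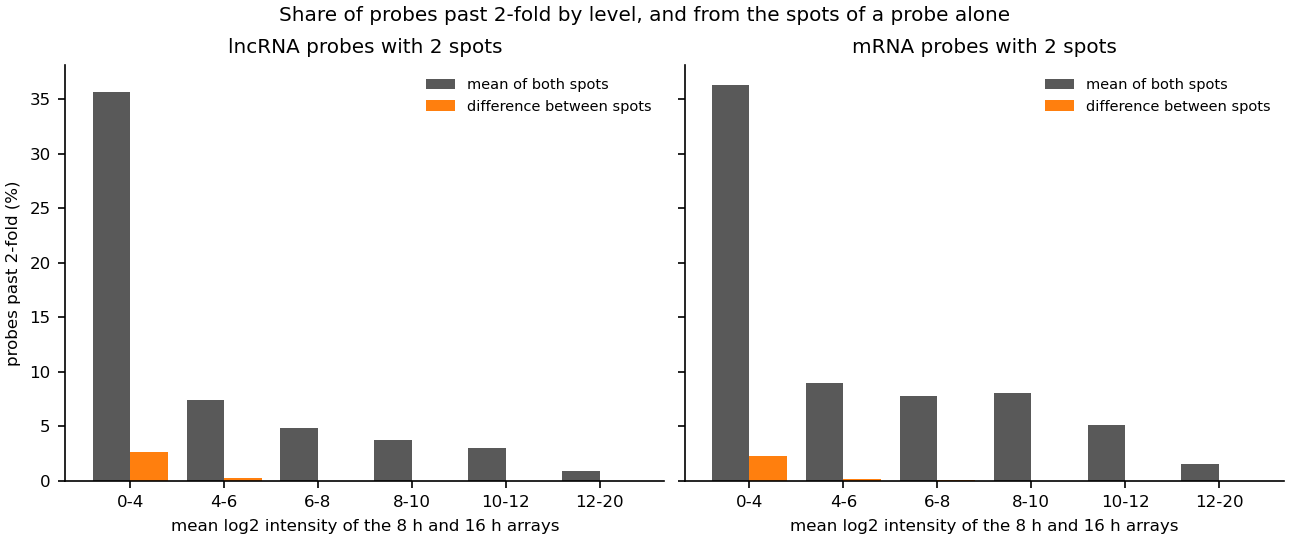
Share of probes with 2 spots and no outlier spot that passed 2-fold, by the mean log2 intensity of both arrays. Dark bars use the mean of the spots and orange bars the difference between them. Probes under a log2 intensity of 4 passed most often, in part because the filter keeps the dimmest probes only if their arrays differ. The difference between spots gave 2.68% there for lncRNA and 2.24% for mRNA.

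Among lncRNA probes with a gene name, 139 (3.70%) passed 2-fold upwards and 151 (4.02%) downwards. In a chosen set of named probes, with a few mRNA probes included, 29 higher and 48 lower ones were above background on both arrays. Of these, 19 and 21 were past 2-fold after normexp correction too. The largest increase among named probes with all spots above background on both arrays was that of Neat1, the RNA scaffold of paraspeckles. The probe named for it had intensities of 29.2 (0 h), 12.8 (4 h), 36 (8 h) and 247 (16 h). It was low until 8 h and dim at 4 h, and 16 h stood apart from the other 3 arrays. The difference was 2.95, or 7.71-fold, with 2.94 and 2.95 from the spots, and 1.83 after normexp correction. Gm35420 followed with 2.92, from intensities of 85.3 (0 h), 63 (4 h), 31.1 (8 h) and 210.2 (16 h). Its level had fallen until 8 h, and at 16 h it was the highest of the course.

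The other members of the 10 highest were mostly uncharacterized lncRNA genes. Gm34891 had intensities of 20.9 (0 h), 18.9 (4 h), 50.9 (8 h) and 255 (16 h) and a difference of 2.49. Gm38687 gave 2.45, and had intensities of 21.1 (0 h), 21.1 (4 h), 28.2 (8 h) and 138 (16 h), not well above background at 4 h. Both were near the background in unstimulated cells. Gm36090 was one of the brighter ones, with intensities of 566 (0 h), 309 (4 h), 783 (8 h) and 2906 (16 h) and a difference of 2.06 (spots 2.07 and 2.05). A second probe of Gm36090 differed by 1.69. Gm39257, which overlaps the coding gene Wwox, and Gm40783, which overlaps Hmga2, differed by 2.29 and 2.10. Gm13073 and Gm16350 both differed by 2.0. After normexp correction these 7 genes differed by 1.22 to 1.95.

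Ptgs2os was also among the 10 highest. It lies beside Ptgs2, which codes for the cyclooxygenase that starts the synthesis of prostaglandins. The intensity of its single spot was 2.90 (0 h), 3.14 (4 h), 14.8 (8 h) and 55 (16 h), and only the last 2 of these were well above background. The difference was 2.06 with a scanner error of 0.34, and 0.81 after normexp correction, which is within 2-fold. The transcript was thus measurable late in the course and was still low at 16 h. Its promoter is shown because the transcript was first measured at 8 h. The sequence is that of RefSeq on GRCm38.p6, chr1:150099875-150100124 (minus strand), the 250 bases before the annotated start, 5′ to 3′ on the strand of the gene.
Ptgs2os promoter: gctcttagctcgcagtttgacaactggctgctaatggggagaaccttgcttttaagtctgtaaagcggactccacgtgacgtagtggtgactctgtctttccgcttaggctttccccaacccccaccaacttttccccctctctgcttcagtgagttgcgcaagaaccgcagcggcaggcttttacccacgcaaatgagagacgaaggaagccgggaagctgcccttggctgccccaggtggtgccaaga
None of the motifs searched is in this window. They were the kappaB motif, which is bound by NF-κB, AP-1 (TGANTCA), the core of the ISRE (GAAANNGAA), an E2F motif (GCGGGAA), CHR (TTTGAA), the CCAAT box (CCAAT) and the TATA box (TATAAA), each on both strands. In promoters printed below, capitals mark a match, and a match is a run of letters and not a site shown to be used.

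Of the lncRNAs known in immune cells, a list of 20 genes, 8 had a named probe and 9 probes were examined. Of these, 3 were higher by more than 2-fold and 0 lower, where 3.70% and 4.02% of all named probes were, with a median of 0.29 beside -0.02 over all lncRNA probes examined. Neat1 and Ptgs2os are 2 of them. The other is Trp53cor1, known as lincRNA-p21, a transcript induced by p53 upstream of Cdkn1a. It had intensities of 1392 (0 h), 901 (4 h), 1163 (8 h) and 2523 (16 h) and differed by 1.28, with 1.24 and 1.33 from the spots. Here 16 h was above each earlier array. Morrbid, which acts on the pro-apoptotic gene Bcl2l11 in myeloid cells, was measured by 2 probes that moved apart, by -0.86 and 0.68. Gm20234 was within 2-fold at 0.24, as were both probes of Mirt1 (0.21 and 0.29) and Lncppara (-0.01).

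Nuclear and chromatin lncRNAs, a list of 15 genes, had named probes for 9. Of 10 probes examined 3 were higher and 2 lower by more than 2-fold, beside 3.70% and 4.02% of all named probes, with a median of -0.11. One of the lower ones, Tsix, has only a bound. Airn, an imprinted lncRNA whose gene overlaps Igf2r, was higher on both of its probes. The probe matched by accession had intensities of 543 (0 h), 724 (4 h), 206 (8 h) and 666 (16 h). The RIKEN clone had intensities of 1667 (0 h), 3036 (4 h), 1016 (8 h) and 1983 (16 h). On both, 8 h was the lowest of the 4 arrays and 16 h lay between 0 h and 4 h. The differences were 1.86 and 1.13, from 1 spot each with a scanner error of 0.20. Its promoter, chr17:12741061-12741310 (plus strand) on GRCm38.p6, is printed as that of a gene that fell by 8 h and was higher again by 16 h.
Airn promoter: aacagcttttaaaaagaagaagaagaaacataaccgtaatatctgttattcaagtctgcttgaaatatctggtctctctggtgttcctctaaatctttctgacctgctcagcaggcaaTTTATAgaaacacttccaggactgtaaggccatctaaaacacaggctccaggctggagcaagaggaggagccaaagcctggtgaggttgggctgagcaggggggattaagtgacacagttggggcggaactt
The capitals mark a TATA box read on the opposite strand, 127 to 132 bases before the start. A TATA box is in 13% of 27025 such windows, the first listed for each gene of the table.

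Peg13, an imprinted lncRNA within Trappc9, was lower by more than 2-fold, with intensities of 102 (0 h), 55.8 (4 h), 66.1 (8 h) and 23.3 (16 h) and a difference of -1.34 (spots -1.19 and -1.49), or -0.49 after normexp correction. Tsix, the antisense partner of Xist, had intensities of 10.2 (0 h), 3.65 (4 h), 15.7 (8 h) and 2.98 (16 h). It was well above background at 8 h alone, so it was at least 1.06-fold lower at 16 h, and a 2-fold change was not measured. The rest stayed within 2-fold. Lncpint, a p53-induced transcript, differed by 0.81 with like values on both spots (0.81 and 0.80). Norad, a binder of Pumilio proteins, differed by -0.81, and Firre, a nuclear lncRNA of the X chromosome, by -0.22. Kcnq1ot1 differed by -0.01, with spots on either side of 0 (0.26 and -0.27).

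Host genes of small RNAs, by symbols that end in hg or begin with Snhg, had 14 probes examined, of which 3 (21.4%) were higher and 0 lower by more than 2-fold, beside 3.70% and 4.02% of all named probes. Their median was -0.13, and the grouping was made after the values were seen. Of the snoRNA host genes, 6 probes were examined and 0 passed 2-fold in either direction, with a median of -0.14. The nearest to the limit was Snhg3, with intensities of 2685 (0 h), 5047 (4 h), 2879 (8 h) and 1378 (16 h), a difference of -0.90 on 1 spot. Snhg16 differed by -0.63, Snhg8 by -0.17, Snhg7 by -0.12, Snhg5 by 0.10 and the very bright Snhg9 by 0.08. The list of miRNA host genes also held Mirt1 and Mirt2, which are not miRNA hosts, and 12 of its probes were examined. Of these, 1 was lower by more than 2-fold and 0 higher. That probe is a RIKEN clone of Dleu2, with intensities of 289 (0 h), 148 (4 h), 278 (8 h) and 102 (16 h), and a difference of -1.28 on 1 spot, or -0.93 after normexp correction. The Dleu2 probe matched by accession had intensities of 42.5 (0 h), 26.7 (4 h), 42.9 (8 h) and 27.3 (16 h) and differed by -0.49, so the probes share the direction but not the size. Mir22hg (-0.20), Meg3 (0.12) and the clone of Rian (-0.03) stayed within 2-fold.

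The higher probes were those of 3 hosts outside the lists, named after their values were seen, while Mir217hg (-0.19), Mir9-3hg (-0.18) and Mir133a-1hg (-0.15), also outside them, were within 2-fold. Mirc35hg had 1 probe with intensities of 37.3 (0 h), 26.3 (4 h), 11.8 (8 h) and 36.1 (16 h), not well above background at 8 h, and was at least 3.30-fold higher at 16 h. Its other probe was bright, with intensities of 2659 (0 h), 2422 (4 h), 2307 (8 h) and 2084 (16 h), and differed by 0.02. The 2 accessions are transcripts of 1 gene, and the probes gave different answers. Mir1a-1hg had intensities of 707 (0 h), 267 (4 h), 488 (8 h) and 1072 (16 h) and differed by 1.30. Mir100hg had intensities of 177 (0 h), 146 (4 h), 149 (8 h) and 267 (16 h) and differed by 1.01. For both, 16 h was the highest array.

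The arrays measured the host transcripts and not the mature miRNAs. RefSeq places 4, 6 and 5 mature miRNAs inside the spans of Dleu2, Mirc35hg and Mir100hg on GRCm38.p6. A selection of them, all 5p arms, is shown to say what kind of product these loci hold, with the seed (bases 2 to 8) in capitals.
mmu-miR-15a-5p: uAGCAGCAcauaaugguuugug
mmu-miR-16-5p: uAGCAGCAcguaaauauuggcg
mmu-miR-96-5p: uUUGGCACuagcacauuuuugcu
mmu-miR-182-5p: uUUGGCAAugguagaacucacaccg
mmu-miR-183-5p: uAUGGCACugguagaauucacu
mmu-miR-100-5p: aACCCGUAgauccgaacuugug
mmu-miR-125b-5p: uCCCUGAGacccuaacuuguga
Those shown from Dleu2, at chr14:61632075-61632096 (minus strand) and chr14:61631936-61631957 (minus strand), share 1 seed. The next 3 come from Mirc35hg at chr6:30169506-30169528 (minus strand), chr6:30165962-30165986 (minus strand) and chr6:30169711-30169732 (minus strand), and have 3 different seeds. Those of Mir100hg lie at chr9:41531437-41531458 (plus strand) and chr9:41581940-41581961 (plus strand) and share none.

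Opposite-strand lncRNAs, whose symbols end in os, had 60 probes examined. Of these, 5 were higher by more than 2-fold (8.33%) and 1 lower (1.67%), beside 3.70% and 4.02% of all named probes, with a median of 0.04, a grouping made after the values were seen. Bcas3os1 had intensities of 439 (0 h), 201 (4 h), 323 (8 h) and 970.2 (16 h) and a difference of 1.75, and 16 h exceeded every earlier array. Arhgap27os3 had intensities of 445 (0 h), 113 (4 h), 115 (8 h) and 300.4 (16 h) and differed by 1.55, without reaching its 0 h level. The remaining higher ones besides Ptgs2os were Tvp23bos (1.30) and Arl4aos, which was dim at 8 h and at least 1.97-fold higher at 16 h. Prkag2os1 was the lower one, with intensities of 80.1 (0 h), 54.7 (4 h), 27.5 (8 h) and 11.2 (16 h), not well above background at 16 h, so that it was at least 1.85-fold lower. For Arl4aos and Prkag2os1 these bounds lie under 2-fold.

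Some lncRNA probes came up from below the background. A fold change is then only a bound, the level at 16 h over the higher of the probe's own value at 8 h and the lowest value measured above background on that array. Background differs between spots. Nudt12os at 16.1 was not well above it at 16 h, where the lowest intensity that was stood at 13.2. The bounds also leave out spot error, so "at least" is approximate and small bounds are weak. Gm41331 had intensities of 12.6 (0 h), 9.11 (4 h), 11.2 (8 h) and 121 (16 h) and was at least 11-fold higher at 16 h, the highest bound among named probes. Gm26799 was at least 5.98-fold higher, Gm30259 4.14-fold, Gm38753 3.99-fold and Gm40522 3.34-fold. At 0 h, Gm40522 was the only one of these 5 above background, with intensities of 17.9 (0 h), 18.9 (4 h), 11.7 (8 h) and 36.6 (16 h).

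Others were lost. Arhgef18 and Mboat1, clones from coding loci, were at least 4.41-fold and 3.64-fold lower at 16 h. Gm32650, which overlaps Heatr9, had intensities of 2.74 (0 h), 141 (4 h), 62.1 (8 h) and 9.98 (16 h) and was at least 4.19-fold lower. It was well above background at 4 h and 8 h only. Other probes of this gene, above background on both arrays, differed by -1.38, -1.05 and 0.07. The pseudogene Gm6525 was at least 3.69-fold lower, and E230014E18Rik, with intensities of 202 (0 h), 106 (4 h), 51 (8 h) and 13.1 (16 h), at least 3.44-fold.

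Downregulated probes with a measured level on both arrays were led by a clone of Troap, a protein of the mitotic spindle. Its intensities were 445 (0 h), 544 (4 h), 151 (8 h) and 20.7 (16 h), and the difference was -2.70 on 1 spot with a scanner error of 0.30. The level was held until 4 h and then dropped at each array. A clone named Rnf227, which the RefSeq table lists as noncoding, had intensities of 1051 (0 h), 210.1 (4 h), 152 (8 h) and 37.2 (16 h) and differed by -1.86, or by -0.98 after normexp correction, and a second Rnf227 probe by -0.90. Cxcl14, a chemokine gene, had a clone with intensities of 927 (0 h), 871 (4 h), 826 (8 h) and 221 (16 h), a difference of -1.74 and spots of -1.78 and -1.70. It was level over the first 3 arrays, and only 16 h was low.

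Among lncRNA genes, Gm32663 had intensities of 206 (0 h), 252 (4 h), 323 (8 h) and 86.3 (16 h) and differed by -1.73, after a slow increase. 4930552P06Rik, not well above background at 0 h, had intensities of 13.4 (0 h), 31 (4 h), 77.2 (8 h) and 19.6 (16 h) and differed by -1.81. 1700099I09Rik differed by -1.62, and the pseudogene 2700099C18Rik, with intensities of 4148 (0 h), 2536 (4 h), 1412 (8 h) and 425 (16 h), by -1.56. After normexp correction 4930552P06Rik and 1700099I09Rik were within 2-fold, at -0.70 and -0.43. The pseudogene fell at each array, but a second probe of the gene differed by -0.05.

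Crnde, a lncRNA gene next to Irx5, showed the same kind of course at a lower level. Its intensities were 224 (0 h), 119.6 (4 h), 48.5 (8 h) and 16.2 (16 h), with a difference of -1.41 and spots of -1.50 and -1.32. A second probe of the gene differed by -0.30, and normexp correction left -0.40 on the first. The promoter of Crnde, chr8:92356121-92356370 (minus strand) on GRCm38.p6, holds a CCAAT box on the opposite strand, in capitals, 104 to 108 bases before the start. This motif is in 34.5% of the windows.
Crnde promoter: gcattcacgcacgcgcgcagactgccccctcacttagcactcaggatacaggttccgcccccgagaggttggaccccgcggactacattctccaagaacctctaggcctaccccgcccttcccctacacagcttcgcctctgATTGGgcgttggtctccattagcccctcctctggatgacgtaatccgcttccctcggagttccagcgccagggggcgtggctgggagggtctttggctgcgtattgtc

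Among probes named for protein-coding genes, more passed 2-fold downwards than upwards. Of 582 probes at protein-coding loci, nearly all of them clones, 10 (1.72%) were higher and 49 (8.42%) lower by more than 2-fold. Of 3043 probes of lncRNA genes, 127 (4.17%) were higher and 94 (3.09%) lower. Above background on both arrays, 9 were higher and 32 lower at the coding loci, and 88 higher and 37 lower at the lncRNA genes. The median difference was -0.09 at the coding loci and close to 0 at the lncRNA genes, and the median intensities were 168 and 76.5. The files do not give the position or strand of a clone within its locus, so a clone may measure the coding transcript, an unspliced form or an antisense RNA. The difference between the kinds was not tested, and it was noticed after the values were seen. Over all 11741 RIKEN clones examined, named or not, 3.14% were higher and 5.20% lower.

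**Figure D3:**
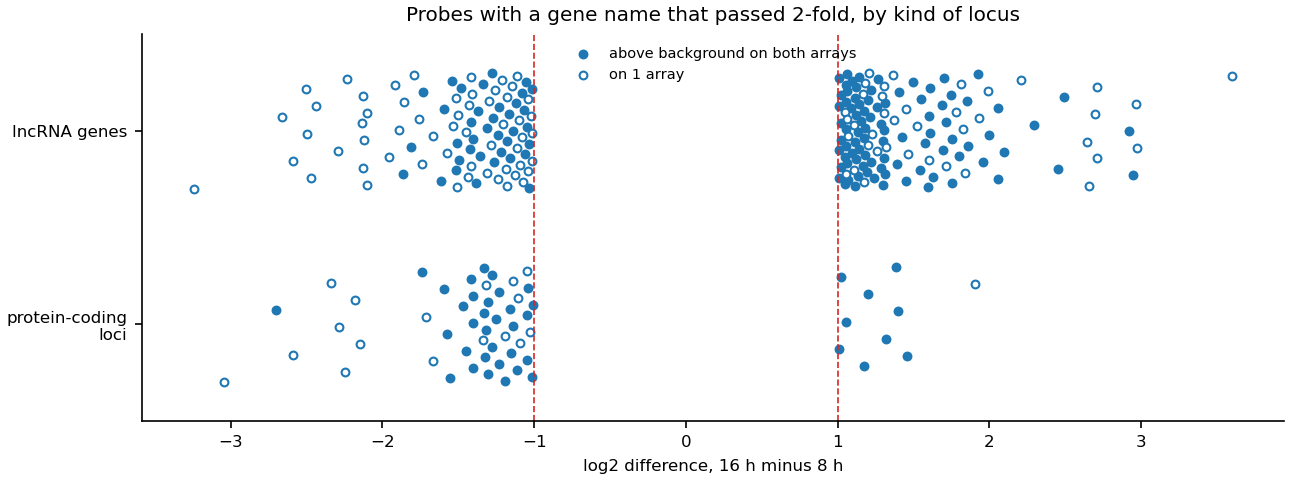
Log2 difference (16 h minus 8 h) of the probes with a gene name that passed 2-fold, by kind of locus. Filled points were above background on both arrays and open points on 1 array, and the height within a row has no meaning. Of the points at protein-coding loci, 49 lie on the lower side and 10 on the higher.

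The genes named next from the lower probes at coding loci were chosen after their values were seen. Hells, a chromatin remodeller of dividing cells, had intensities of 2225 (0 h), 1064 (4 h), 516 (8 h) and 172 (16 h) and differed by -1.42. Cenph, a kinetochore gene, had intensities of 74.3 (0 h), 29.4 (4 h), 20.1 (8 h) and 2.98 (16 h), not well above background at 16 h and at least 1.36-fold lower. Probes of the centriole genes Rttn, a clone, and Cep41, matched by the accession of a noncoding transcript, differed by -1.60 and -1.55. Cdk2, the only member of the cell cycle list with a probe, differed by -0.55, within 2-fold, after a larger drop of -1.94 from 0 h to 8 h.

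Twistnb, a subunit of RNA polymerase I, had intensities of 1494 (0 h), 1396 (4 h), 672 (8 h) and 219 (16 h) and differed by -1.45. Rrn3, an initiation factor of that polymerase, had intensities of 395 (0 h), 365 (4 h), 334 (8 h) and 119 (16 h) and differed by -1.32. Polr1a, its catalytic subunit, had intensities of 157 (0 h), 205 (4 h), 91.2 (8 h) and 34.1 (16 h) and differed by -1.25. These 3 clones were lowest at 16 h, and another probe of Polr1a differed by 0.25. Cct4 of the TRiC chaperonin (-1.30), Nudt21 of the cleavage factor for mRNA 3′ ends (-1.30), Mrpl38 of the mitochondrial ribosome (-1.16) and Psmd14 of the proteasome (-1.04) were lower too. Ppm1a, Vps36 and Mbd5 had 1 clone past 2-fold (-1.40, -1.47 and -1.33) and a second probe that was not (-0.32, 0.08 and -0.01). After normexp correction Twistnb, Rrn3 and Hells were past 2-fold, and Polr1a (-0.50), Rttn (-0.54), Cep41 (-0.53), Cct4 (-0.88), Nudt21 (-0.85), Mrpl38 (-0.80), Psmd14 (-0.33), Ppm1a (-0.92), Vps36 (-0.96) and Mbd5 (-0.29) were not.

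Igf1, a growth factor that resting macrophages make, was lost over the course. Its clone had intensities of 998 (0 h), 80.5 (4 h), 14 (8 h) and 2.81 (16 h), and the step studied took it below the background, where no bound over 1-fold could be set. Mgst3, a microsomal glutathione transferase, had intensities of 203 (0 h), 75 (4 h), 32.7 (8 h) and 6.15 (16 h) and was at least 2.21-fold lower at 16 h. Kcnd1, a potassium channel gene, went the other way first. Its clone, not well above background at 0 h, had intensities of 4.89 (0 h), 27 (4 h), 294 (8 h) and 88 (16 h), and the difference of -1.57 took back part of the increase.

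The higher probes from coding loci were 10. Zfp36l1, which codes for a protein that promotes decay of AU-rich mRNAs, had intensities of 426 (0 h), 93.5 (4 h), 80.7 (8 h) and 179 (16 h) and differed by 1.32. Mtss1 had intensities of 864 (0 h), 248 (4 h), 87.1 (8 h) and 158 (16 h) and differed by 1.02. The choline transporter gene Slc44a1 had intensities of 624 (0 h), 629.6 (4 h), 109 (8 h) and 218 (16 h) and differed by 1.17. These 3 were low at 8 h and stayed below their 0 h level. Zc3hav1, an antiviral zinc finger gene, had intensities of 541 (0 h), 1354 (4 h), 635 (8 h) and 1174 (16 h) and differed by 1.05, and its highest array was 4 h. Kdm2a (1.46), Tmem167 (1.40), Dst (1.39) and Lpxn (1.20) were highest at 16 h. Tex55 was dim before 16 h. After normexp correction Tmem167 was past 2-fold at 1.17, and the others named here that were measured on both arrays differed by 0.62 to 0.96.

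A gene with several probes gives a check that does not rest on spots of 1 sequence. Above background on both arrays were 2 or more probes of 166 genes, and for 106 of them all probes differed in the same direction. Where a probe passed 2-fold, in 19 genes, the others shared its direction in 13. In most of the 19 only 1 probe passed 2-fold. Some of the others lay near 0, as in 2700099C18Rik (-0.05) and Mbd5 (-0.01). Airn, Gm36090 and Gm38925 had 2 probes past 2-fold and none against it. Gm31323 (-1.27 and 0.90) and Gm41033 (1.14 and -0.57) had probes that disagreed.

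Most of the changed probes had not passed 2-fold from 0 h to 8 h, although more of them had than of all probes. Of the probes higher at 16 h, 14.8% had risen and 18.2% had fallen in that first step, and of the lower ones 17.8% and 22.9%. Over all probes examined from 0 h to 8 h these were 6.68% and 7.40%. Of the probes higher at 16 h than at 8 h, 67.4% of lncRNA and 66.3% of mRNA were within 2-fold, or not measured, between 0 h and 8 h. Of the lower ones these shares were 59.6% and 59.1%. The rest either continued or reversed the first step. Among lncRNA probes 160 continued a rise, 323 continued a fall, 338 rose and then fell, and 265 fell and then rose. Among mRNA probes the numbers were 163, 354, 188 and 133. Continuing probes were 44.5% of the lncRNA and 61.7% of the mRNA probes that passed 2-fold in both steps.

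The 2 steps share the 8 h array, so an error of that array alone would count as a reversal. With spot 1 used for the first step and spot 2 for the second, so that no spot of the 8 h array is used in both, lncRNA probes with 2 spots gave 134 continued rises, 202 continued falls, 165 rises then falls and 151 falls then rises. These lncRNA probes continued in 51.5% of the cases, against 50.5% with the mean of their spots. Both spots of the 8 h array measure 1 RNA sample, so the split removes only noise between spots. It cannot show an error that the spots share. The share of 44.5% over all lncRNA probes includes those with 1 spot. For mRNA the split gave 179, 361, 193 and 137. With the step from 0 h to 4 h in place of that from 0 h to 8 h, no array is shared. Then 113 lncRNA probes continued a rise, 193 a fall, 262 rose and then fell and 214 fell and then rose, and for mRNA 92, 130, 208 and 133, and continuing probes were 39.1% and 39.4%.

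Seen from the first step, most probes held their new level. Of 2818 lncRNA probes higher at 8 h than at 0 h, 82.3% stayed within 2-fold of 8 h, 5.68% went further and 12% went back. Of 2124 such mRNA probes, 83.5% held, 7.67% went further and 8.85% went back. Probes that had fallen more often went on, with 12.4% of 2605 lncRNA probes and 18.3% of 1930 mRNA probes falling further and 10.2% and 6.89% going back. Over all probes examined in the second step, 3.13% of lncRNA were higher and 3.94% lower, and 2.82% and 4.24% of mRNA. The shares going further and those going back were all above these, and falls were the more common change in the step as a whole. No test was made between lncRNA and mRNA.

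**Figure D4:**
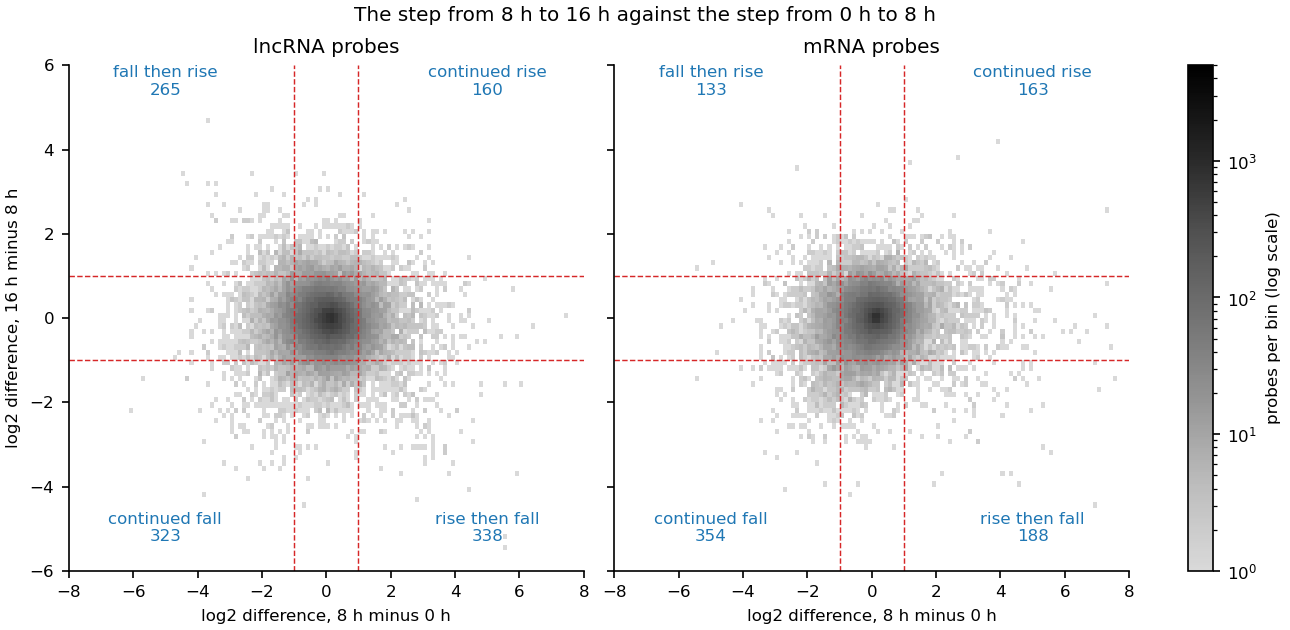
Log2 difference of the step from 8 h to 16 h against that from 0 h to 8 h, for lncRNA and mRNA probes examined in both. Shading counts probes per bin on a log scale, dashed lines mark 2-fold, and the numbers count the probes past 2-fold in both steps. Continued falls are the largest corner for mRNA, with 354 probes, and rises then falls for lncRNA, with 338.

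Probes that reversed mostly came back to near their first level. Of the lncRNA probes that fell and then rose, 84.5% were within 2-fold of 0 h at 16 h, and of those that rose and then fell 77.2%. For mRNA the shares were 88.7% and 61.7%. A reversal by about the size of the first step is what returns a probe to its first level, so these shares follow in part from the choice.

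The probes named for their course are those well above background on all 4 arrays, ranked by the smaller of their 2 differences, so that probes dim at any time, such as 4930552P06Rik, Kcnd1, E230014E18Rik and Igf1, are left out. Gm40783 led the named cases of a fall and a rise, with intensities of 964 (0 h), 1404 (4 h), 281 (8 h) and 1069 (16 h). Its difference was -1.68 from 0 h to 8 h and 2.10 from 8 h to 16 h (spots 2.12 and 2.07). The 8 h array alone was low. 9230105E05Rik, which also overlaps Hmga2, had intensities of 144 (0 h), 227 (4 h), 49.7 (8 h) and 168 (16 h) and gave -1.43 and 1.93. The probes differ in level but had the same order over the arrays, and Gm34952, within 100 kb of the same gene, stayed within 2-fold at 0.17. Gm39257 (-1.49 and 2.29) and Gm41395 (-1.87 and 1.61) also fell and rose, as did Arhgap27os3, and Gm41395 was within 2-fold in the second step after normexp correction (0.71). The promoter of Gm40783, chr10:120364106-120364355 (plus strand) on GRCm38.p6, is given for comparison with that of Airn, which had the same course. It holds a CHR match on the opposite strand, 148 to 153 bases before the start, a motif found in 16.3% of the windows. It also holds the ISRE core on its own strand, 117 to 125 bases before the start, which is in 7.16% of windows, and no TATA box.
Gm40783 promoter: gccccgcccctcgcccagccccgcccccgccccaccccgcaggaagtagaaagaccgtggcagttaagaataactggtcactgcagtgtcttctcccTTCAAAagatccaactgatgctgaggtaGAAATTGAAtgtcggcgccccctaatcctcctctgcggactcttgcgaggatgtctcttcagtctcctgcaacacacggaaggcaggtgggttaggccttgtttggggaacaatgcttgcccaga

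By that ranking, rises that turned back were led by Gm33246, with intensities of 73.2 (0 h), 1384 (4 h), 625 (8 h) and 184 (16 h), with differences of 3.2 and -1.59. It peaked at 4 h and was still above its 0 h level at 16 h. Gm33325, with intensities of 329 (0 h), 3124 (4 h), 1158 (8 h) and 366 (16 h), gave 1.92 and -1.49, and returned close to its 0 h level. Gm39275 was among the brightest of the named probes, with intensities of 5625 (0 h), 29706 (4 h), 19005 (8 h) and 6397 (16 h). It gave 1.86 and -1.40, with -1.47 for the second step after normexp correction. Phxr4 (3.19 and -1.18) and Gm38925, which overlaps Bcat1 (1.24 and -1.16), had the same form, the latter within 2-fold in the second step after normexp correction (-0.99). In the promoter of Gm33325, chr15:97343211-97343460 (minus strand) on GRCm38.p6, a CCAAT box lies 143 to 147 and a CHR match 104 to 109 bases before the start, both on the strand of the gene.
Gm33325 promoter: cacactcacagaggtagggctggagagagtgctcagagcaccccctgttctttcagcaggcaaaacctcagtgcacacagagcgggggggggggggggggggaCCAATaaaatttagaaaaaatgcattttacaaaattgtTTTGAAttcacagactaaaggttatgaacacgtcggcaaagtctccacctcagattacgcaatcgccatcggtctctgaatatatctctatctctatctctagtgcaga

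Gm34891 (1.39 and 2.49) and Gm13073 (2.68 and 2.0) kept rising, the latter with intensities of 19.7 (0 h), 39.6 (4 h), 117 (8 h) and 418 (16 h). Gm40324, with intensities of 34 (0 h), 40.4 (4 h), 71.2 (8 h) and 214 (16 h), gave 1.17 and 1.75, and Gm36416 1.17 and 1.18. A clone of Tmem167, a small membrane protein of the secretory pathway, did the same. By the same ranking, the largest continued falls above background on all 4 arrays were those of Troap, Rnf227, 2700099C18Rik, Rttn and Hells, described above.

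**Figure D5:**
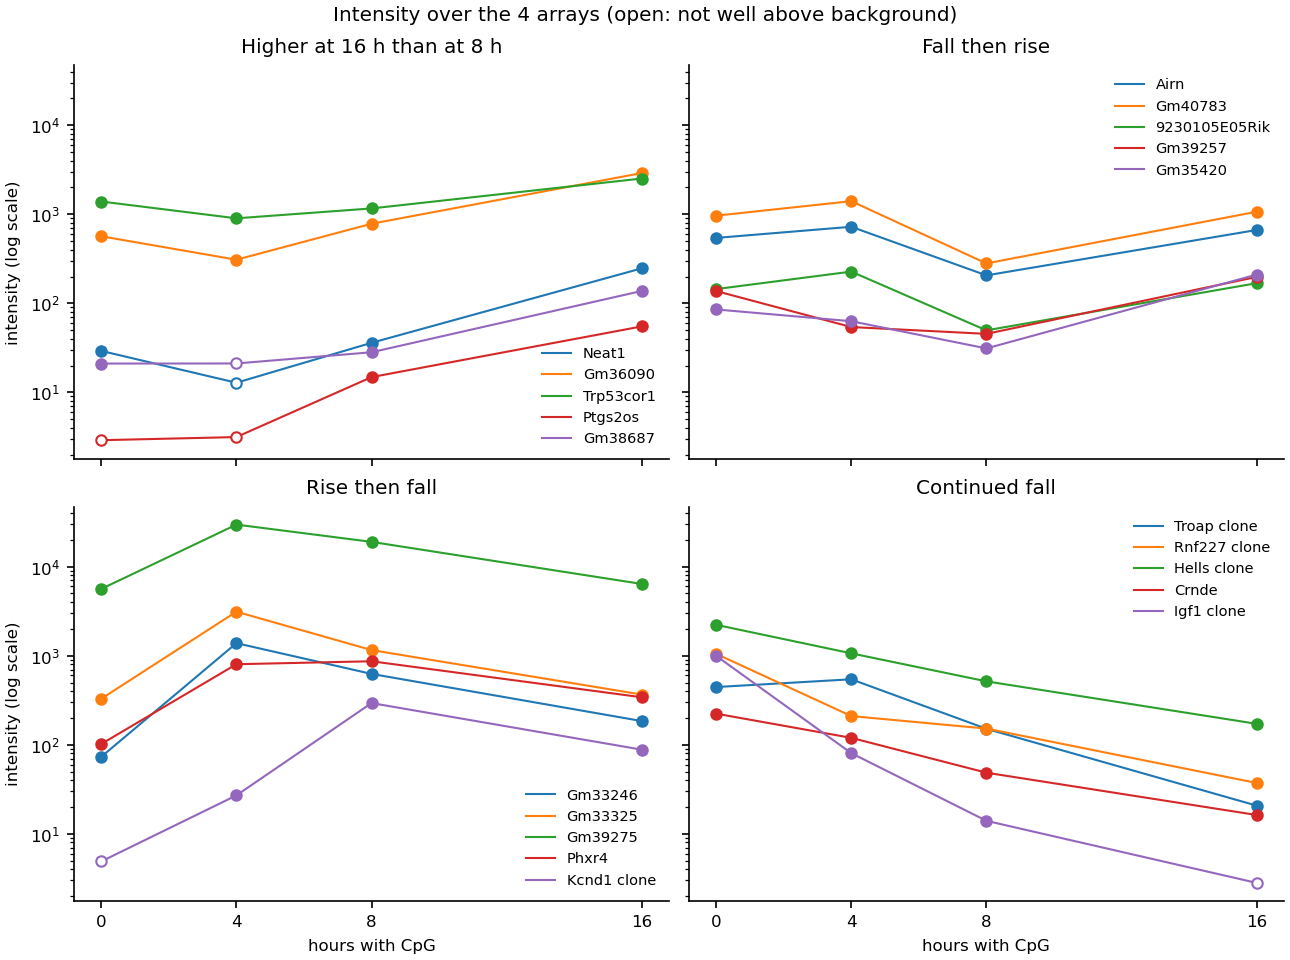
Intensity (log scale) against hours with CpG for 5 named probes in each of 4 courses, 1 array per point and with no scaling between arrays. Open points were not well above background. In the panel of falls then rises the 8 h array is the lowest for all 5 probes, and in that of continued falls 16 h is.

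The promoter motifs were counted over all named genes past 2-fold that had a promoter in the table, 98 of 136 higher and 111 of 148 lower genes. The kappaB motif was in 6.52% of 92 promoters of higher lncRNA genes and 10.3% of 68 of lower ones, beside 7.01% of all windows. For AP-1 these were 9.78% and 2.94% beside 6.87%, and for the ISRE core 9.78% and 5.88% beside 7.16%. The E2F motif was in 0 of the 92, in 2 of the 68 and in 4 of 43 promoters of lower coding loci, beside 3.84% of all windows. The TATA box was in 15, 10 and 0 of these promoters. CHR was in 16, 13 and 4 of them, beside 16.3% of all windows, and the CCAAT box in 27, 26 and 16, beside 34.5%. In the 43 promoters of lower coding loci, the kappaB motif was in 6, AP-1 in 3 and the ISRE core in 3. These are counts of letters, with no test.

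Neighbouring coding genes were looked up for lncRNA genes in the same RefSeq table. Of 2552 probes of lncRNA genes within 100 kb of a protein-coding gene, 113 (4.43%) were higher and 80 (3.13%) lower by more than 2-fold. Next to genes of NF-κB signalling and its feedback, 6 probes were examined and 0 passed 2-fold in either direction. The probe of 4833438C02Rik, which overlaps Nfkb2, had intensities of 884 (0 h), 1221 (4 h), 1202 (8 h) and 641 (16 h) and differed by -0.74. Gm34545 and Gm40781, which overlap the inhibitor gene Irak3, differed by -0.22 and -0.04. Gm41236 beside Acod1, the gene for the enzyme that makes itaconate, had intensities of 1034 (0 h), 2484 (4 h), 2374 (8 h) and 2377 (16 h) and differed by 0.17. It had risen by 4 h and kept its level. Next to interferon response genes 4 probes were examined, and 1, Gm39266 beside Irf8, was at least 2.11-fold higher. Its intensities were 13 (0 h), 12 (4 h), 3.32 (8 h) and 23.1 (16 h), and only 16 h was well above background. Among 5 next to genes of sterol synthesis, 9330133O14Rik beside Mvd was lower, with intensities of 229 (0 h), 236 (4 h), 165 (8 h) and 61 (16 h) and a difference of -1.26.

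Of the lncRNAs the study named, 4 could be matched to a probe by name or accession. BACE1AS, the antisense transcript of the gene for β-secretase, had intensities of 728 (0 h), 458 (4 h), 339.6 (8 h) and 151 (16 h). It fell at each array, and its difference was -1.0, at the limit of 2-fold, with -0.89 and -1.11 from the spots and -0.83 after normexp correction. The probe named MEG9, matched to Mirg, had intensities of 19.9 (0 h), 51.6 (4 h), 29.4 (8 h) and 24.1 (16 h) and differed by -0.12. Pldi had intensities of 18.4 (0 h), 90.4 (4 h), 115 (8 h) and 142 (16 h) and differed by 0.48 on 1 spot, and most of its rise lay before 8 h. Firre differed by -0.22, after -1.0 from 0 h to 8 h.

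The mRNA probes can be named only by their catalogue numbers. With all spots above background on both arrays, the largest increases were those of A_55_P2174582, with intensities of 7.52 (0 h), 12.2 (4 h), 108 (8 h) and 1708 (16 h), with a difference of 4.15, and of A_55_P1961395, with intensities of 2.60 (0 h), 22 (4 h), 15.9 (8 h) and 203 (16 h), with 3.84. Neither was well above background at 0 h, and both were highest at 16 h. The largest decreases were those of A_55_P2065671, with intensities of 2672 (0 h), 2566 (4 h), 948 (8 h) and 56.5 (16 h), with -3.90, and of A_55_P2135064, with intensities of 41.2 (0 h), 2025 (4 h), 782 (8 h) and 56 (16 h), with -3.64. The first was held until 4 h and then lost. The other rose by 4 h and was back near its 0 h intensity at 16 h.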

How the data were processed

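Per the file headers, the authors scanned each array (1-colour, Cy3) and deposited the processed signal of every spot as an intensity, made with Feature Extraction 11.5.1.1, whereas the labels name version 10.7. They also deposited a log2 expression table of 71505 probes, normalized by them in GeneSpring, which served as an alternative only. There is 1 array per time point, so the precision is limited by the number of arrays and no p-value is given.

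Control spots and spots marked as outliers were left out. Intensities were log2 transformed and averaged over the spots of a probe, less each array's 75th percentile. A probe was examined when every spot lay well above background on either array compared, and a change counted when it exceeded 2-fold. A probe that was dim on 1 side counts by its measured value, but its fold there is only a bound. Python 3.11.15, numpy 2.4.6, pandas 2.3.3 and limma 3.58.1 in R 4.3.3 were used, and the steps were tested on simulated data.

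Genes were named by RefSeq accession (4658 of 13019 probes), by RIKEN clone identifier (1209 of 15675) or by the lncRNA name in the file. The clone route reached 654 probes at protein-coding loci. Promoters and mature miRNAs are those of RefSeq tables on GRCm38.p6. The array files use mm9 and no coordinate of theirs is printed. Named are the lncRNAs of the study, the 10 highest and 10 lowest differences with a measured level on both arrays, the 5 highest bounds per direction, list members, the 5 largest continuing and reversing probes per direction, and 2 mRNA probes per direction. Host genes, opposite-strand lncRNAs and further probes of coding loci were added after their values were seen. The result of 1 gene is not reported here. Members and lists were chosen with earlier results of these data known.

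Alternatives were normexp background correction with an offset of 50 (on the spots' median rather than mean signal), quantile normalization, a percentile of the probes found on every array, other filters on dim probes, outlier spots kept, the scanner's error, single spots, the deposited table, the step from 0 h to 4 h, and, chosen after seeing the data, scaling by spike-in probes.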

Additional observations from a re-analysis of the deposited data

Results flagged for a closer look

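Probes that passed 2-fold in opposite directions in the 2 steps were counted as differing between the time intervals. Among lncRNA probes, 338 rose from 0 h to 8 h and fell from 8 h to 16 h, and 265 fell and then rose. Among mRNA probes these were 188 and 133. With 1 array per time point the difference between the steps was not tested, and the steps share the 8 h array.

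Some of the probes past 2-fold are left out of the deposited normalized table. Outside that table, 288 lncRNA probes and 146 mRNA probes had passed 2-fold upwards from 8 h to 16 h and were dim in the unstimulated 0 h sample. In all, 294 of the higher lncRNA probes (22.6%) and 277 of the lower ones (16.9%) are not in that table, and 151 (17.2%) and 96 (7.25%) of the mRNA probes. Nearly all the higher probes outside it were thus dim at 0 h. If the table leaves probes out for low signal, that follows in part from its making. How its probes were selected was not examined.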

How the results depend on the processing

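Normexp background correction left 304 higher and 218 lower lncRNA probes and 364 higher and 664 lower mRNA probes. Continued rises, continued falls, rises then falls and falls then rises were 28, 42, 51 and 38 for lncRNA and 63, 167, 69 and 54 for mRNA. A chosen set of probes, not all with a gene name and with some mRNA probes, held 104 past 2-fold. Of these, 41 were past it after that correction, 101 after quantile normalization and 101 after spike-in scaling. In the deposited table this was 87 of 87, a count fixed by how the table was made, since 99.7% to 99.9% of its values per array are within 0.001 of the ones used here after 1 offset. A clone of Rims1 changed direction under normexp, from -1.03 to 0.018. With no filter on dim probes, 2360 lncRNA probes were higher, 640 rose and fell and 512 fell and rose, and 316 mRNA probes rose and fell. With both arrays required above background, 889 lncRNA probes were lower, and the 4 courses held 93, 182, 130 and 161 lncRNA probes, while 108 mRNA probes continued a rise and 103 rose and fell. The deposited table gave 150 lncRNA and 121 mRNA rises then falls. When each spot had to pass, 596 lncRNA probes were higher and 599 lower, with 74, 138, 97 and 105 in the 4 courses. Only probes with 2 spots enter there and where single spots are used. With spot 1 for the first step and spot 2 for the second, lncRNA probes gave 202 continued falls, 165 rises then falls and 151 falls then rises, and with spot 1 for both steps, chosen after seeing the data, 206, 188 and 162. With 4 h in place of 8 h in the first step, 193 lncRNA falls continued, and 92 rises and 130 falls of mRNA. Spike-in scaling, chosen after seeing the data, gave 99 continued lncRNA rises and 551 continued mRNA falls, and moved the median of all differences to -0.08. The share of higher probes was 35.5% for lncRNA and 31.1% for mRNA under it. Apart from those settings whose own construction leaves fewer or more probes, the cause was not tested. The scanner's error, a percentile of the probes found on every array, any spot above background, outlier spots kept and quantile normalization left each of the 12 counts within 1.5 times. No paired analysis was possible because each time point has 1 array, and for the same reason no array could be left out. Signal over background limits the dim probes, where 40.3% of lncRNA probes under a log2 intensity of 4 passed 2-fold, a share that follows in part from the filter.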
